A study of Mus musculus with 28 samples.

Results

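Areg, Tgfa, Mmp9, Prg4 and Igfbp3 encode secreted or shed proteins that act outside the cell that makes them: growth factors, a matrix protease, a lubricating proteoglycan and a carrier of insulin-like growth factors. They are 5 of 6 listed genes, chosen by name from a table of 13103 genes with earlier results on these same samples known, and all 5 passed the filter on low values that 12509 genes passed. Hbegf, the other listed gene, was not analysed here. Because the levels and differences over the sample groups are what the genes were chosen with, their values are a description, and no p-value is given for them.

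The libraries were made from regulatory T cells (Tregs, CD4 T cells that restrain immune responses) of Foxp3-GFP mice, in which green fluorescent protein marks cells with an active Foxp3 locus. Every mouse carried B16 melanoma cells implanted in the skin, and tumors and spleens were taken after 7 to 10 days, so the spleens are those of tumor-bearing animals. GFP-positive cells were sorted by high or low surface OX40, the costimulatory receptor encoded by Tnfrsf4. This gives 4 groups of untreated mice of one strain, named after the labels: tumor OX40plus and tumor OX40minus (4 mice each), and spleen OX40plus and spleen OX40minus (3 mice each). No age or sex of the mice is given in the sources used here. Each mouse and gate had 2 libraries, whose difference was close to the sampling noise of their counts. They were averaged and counted as 1 sample, so n is the number of mice.

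Amphiregulin, the product of Areg, and transforming growth factor alpha, the product of Tgfa, are ligands of the epidermal growth factor (EGF) receptor. Both are made as membrane-bound precursors and are released when a protease, chiefly ADAM17, cuts them next to the cell surface. Tregs that live in muscle, lung and other tissues are known to make amphiregulin, which acts on epithelial and stromal cells during repair.

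Levels are given in CPM, a count divided by the size of its library, recovered from the deposited log2 CPM values. CPM is not corrected for gene length, so levels are compared between samples and not between genes. The samples held 22.4 to 29.7 M estimated counts, and 3 counts correspond to between 0.104 and 0.130 CPM, the limit below which a level is not told from 0. Such limits cover counting error only. Within each tissue Tnfrsf4 followed the gate. Its group means were 253 CPM in spleen OX40minus, 704 in spleen OX40plus, 1950 in tumor OX40minus and 3357 in tumor OX40plus. Across tissues it did not, since tumor OX40minus samples had more Tnfrsf4 than spleen OX40plus samples. Foxp3 was detected in all 14 samples, at a lowest, median and highest level of 23.3, 42.6 and 129.6 CPM. Tumor OX40plus mouse 4 stood apart from its group. The median chi-square per gene between libraries was 6.91 to 12.8 in pairs with this mouse and 4.71 to 6.58 in the other pairs of the group. Leaving this sample out changed no call of the 5 genes.

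The Areg promoter is shown because Areg had a level far higher in tumor than in spleen samples, and because the list of genes set beside it holds Crem, which encodes a factor that binds the cyclic AMP response element. The 250 bases before the annotated start are at chr5:91139349-91139598 on the plus strand of GRCm38.p6, from RefSeq, read 5′ to 3′, with the motif matches in capitals.
Areg: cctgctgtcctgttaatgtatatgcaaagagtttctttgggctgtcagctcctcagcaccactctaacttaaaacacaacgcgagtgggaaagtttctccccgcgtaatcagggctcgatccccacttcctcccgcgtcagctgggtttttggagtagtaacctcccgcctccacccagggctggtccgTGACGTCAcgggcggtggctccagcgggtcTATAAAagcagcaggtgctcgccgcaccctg
The cyclic AMP response element TGACGTCA, which is its own reverse complement, lies 61 to 54 bases before the start, and a TATA box, TATAAA, lies 31 to 26 bases before it. Both strands were searched, and the matches do not overlap. Among 32851 RefSeq promoter windows of the same length, 1.55% held TGACGTCA, 12.4% held TATAAA and 6.75% held TGANTCA, with any base at N. This last pattern covers the element bound by Fos and Jun proteins (AP-1) and is wider than it. TGANTCA was not in the Areg window. The windows of Tgfa and Igfbp3 held none of the 3 motifs. Their base composition also differed, with 57.2% G or C in the Areg window, 69.2% in that of Tgfa and 73.2% in that of Igfbp3. A match describes the letters of the window and is not a measured binding site. RefSeq windows were found for 3 of the 5 genes; Mmp9 and Prg4 are named without one.

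Areg (ENSMUSG00000029378, chromosome 5, 91139599 to 91148432, plus strand, GRCm38) was low in spleen Tregs and at a high level in tumor Tregs of both gates. In spleen OX40minus samples Areg was at 0.501, 0.699 and 1.52 CPM (mean 0.908 ± 0.543, SD, n = 3). In spleen OX40plus samples it was at 2.57, 1.68 and 2.999 CPM (mean 2.42 ± 0.672, SD, n = 3), above every spleen OX40minus sample. The spleen values rest on few reads, 67 estimated counts in the OX40minus group and 181 in the OX40plus group. In tumor OX40minus samples Areg was at 109, 123, 129 and 96.3 CPM (mean 114 ± 14.8, SD, n = 4), and in tumor OX40plus samples at 77.4, 95.4, 93.6 and 74.7 CPM (mean 85.3 ± 10.7, SD, n = 4). The tumor gates did not overlap, but their ranges nearly touched: the highest OX40plus sample was at 95.4 CPM and the lowest OX40minus sample at 96.3. Within each of the 4 mice the OX40plus value was the lower of the pair, which follows from the ranges not overlapping. The order of the groups was spleen OX40minus, spleen OX40plus, tumor OX40plus and tumor OX40minus, with no overlap between neighbours.

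On the scale of the fit, log2 CPM with 0.5 added to each count, the Areg difference of tumor OX40plus from tumor OX40minus was -0.42 ± 0.28 (SE), a ratio of means of 1.34 in favour of OX40minus, and it did not pass the threshold of an adjusted p of 0.05. It passed with limma-voom (-0.43) and when the tumor groups were fitted alone (-0.42). In spleen the difference had the other sign, 1.52 ± 0.32 (SE), a ratio of 2.66 in favour of OX40plus, and it passed. The ratio was 4.03 without spleen OX40minus mouse 3. The spleen call was lost with limma-voom (1.53) and when the spleen groups were fitted alone (1.52). Areg thus had opposite signs between the gates of spleen and tumor, and the interaction, the OX40 difference in tumor minus that in spleen, was -1.95 ± 0.42 (SE) and passed, except with limma-voom (-1.96). Areg was far from its spleen levels in all 8 tumor samples. It was higher in tumor by 5.15 ± 0.30 (SE) on the log2 scale in OX40plus cells, a ratio of 35.3, and by 7.10 ± 0.30 (SE) in OX40minus cells, a ratio of 126. The latter ratio was 191 without spleen OX40minus mouse 3. In bulk samples, fewer cells that make a transcript and less RNA per cell cannot be told apart, which holds for all values here.

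Tgfa (ENSMUSG00000029999, chromosome 6, 86195223 to 86275719, plus strand) was also detected mainly in the tumor samples, with more of it in OX40minus than in OX40plus cells there. Its level was 10.4, 11.98, 12.2 and 6.87 CPM in tumor OX40minus samples (mean 10.4 ± 2.47, SD, n = 4) and 3.19, 0.442, 2.03 and 2.01 CPM in tumor OX40plus samples (mean 1.92 ± 1.13, SD, n = 4). Every tumor OX40minus sample was above every OX40plus sample, at a ratio of means of 5.41 and a log2 difference of -2.67 ± 0.71 (SE), which passed the threshold. In spleen, Tgfa was at 0.231, 0.0821 and 0.0414 CPM in OX40minus samples and at 0.355, 0.0840 and 0 CPM in OX40plus samples. These are 9 and 11 estimated counts per group, 4 of the 6 samples lie under the 3-count limit, and the groups overlapped (-0.09 ± 0.82, SE). The sign of this spleen difference changed with the sample left out, from -0.97 to 0.66, so no direction was detectable at this depth.

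Tumor Tregs had more Tgfa than spleen Tregs in both gates. The log2 difference was 3.83 ± 0.77 (SE) in OX40plus cells and 6.41 ± 0.77 (SE) in OX40minus cells, and both passed without overlap between the groups. The ratios of means, 13.1 and 87.9, are set by the few spleen reads: without spleen OX40plus mouse 1 the former was 45.7, and without spleen OX40minus mouse 1 the latter was 168. The interaction of Tgfa, -2.58 ± 1.09 (SE), did not pass the threshold. It did when 2 counts in place of 0.5 were added before the logarithm (-2.58).

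**Figure D1:**
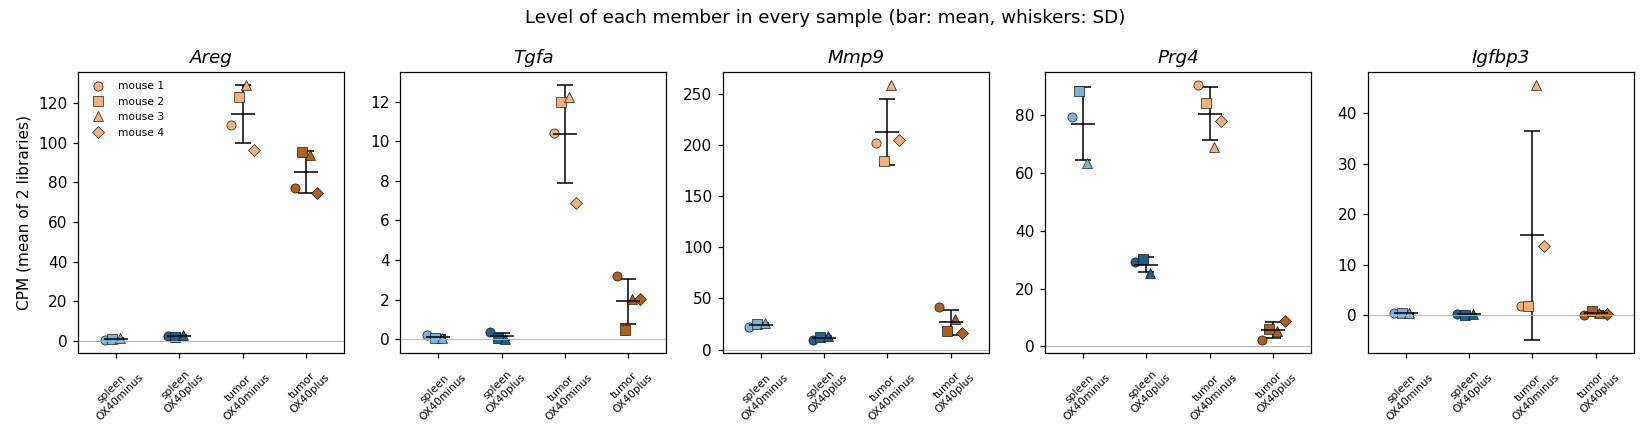
Level in CPM (linear axis, a scale of its own for each gene) of Areg, Tgfa, Mmp9, Prg4 and Igfbp3 in each sample, by group; points are mice, with marker shape for the mouse number, and bars and whiskers are the mean and SD. Tgfa, Mmp9, Prg4 and Igfbp3 were lower in all tumor OX40plus samples than in all tumor OX40minus samples, while the Areg ranges of the tumor gates nearly touched and Igfbp3 in tumor OX40minus cells was led by mouse 3 at 45.7 CPM.

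Mmp9 (ENSMUSG00000017737, chromosome 2, 164940780 to 164955850, plus strand) encodes gelatinase B, a secreted metalloproteinase that cuts denatured collagen and collagen of basement membranes. It stood out in tumor OX40minus Tregs, at 202, 185, 259.5 and 205 CPM (mean 213 ± 32.3, SD, n = 4). Tumor OX40plus samples were at 42.1, 18.1, 29.9 and 16.2 CPM (mean 26.6 ± 11.99, SD, n = 4), all far below the lowest OX40minus sample, at a ratio of means of 8.01. Spleen OX40minus samples were at 21.8, 24.6 and 26.2 CPM (mean 24.2 ± 2.21, SD, n = 3) and spleen OX40plus samples at 9.37, 12.3 and 12.9 CPM (mean 11.5 ± 1.87, SD, n = 3), again without overlap. The tumor OX40plus range covered the whole spleen OX40minus range, so these neighbours in the order of levels did not differ beyond their spread.

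The log2 difference of Mmp9 between the gates was -3.10 ± 0.24 (SE) in tumor and -1.08 ± 0.27 (SE) in spleen, and both passed. The spleen call depended on single samples. It was lost without spleen OX40minus mouse 2 (-1.07), without spleen OX40minus mouse 3 (-1.02) and without spleen OX40plus mouse 1 (-0.94), and also with limma-voom (-1.08). The interaction was -2.02 ± 0.36 (SE) and passed. Mmp9 was higher in tumor than in spleen in both gates, by 1.11 ± 0.25 (SE) in OX40plus and 3.13 ± 0.25 (SE) in OX40minus cells, ratios of 2.31 and 8.79.

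Prg4 (ENSMUSG00000006014, chromosome 1, 150449412 to 150466165, minus strand) encodes proteoglycan 4, or lubricin, the boundary lubricant of joint fluid. Its pattern differed from that of Areg in that the OX40minus cells of both tissues had nearly the same level. Prg4 was at 79.3, 88.5 and 63.5 CPM in spleen OX40minus samples (mean 77.1 ± 12.7, SD, n = 3) and at 90.6, 84.4, 69.1 and 77.9 CPM in tumor OX40minus samples (mean 80.5 ± 9.20, SD, n = 4). These groups overlapped, at a ratio of 1.04 and a log2 difference of 0.07 ± 0.31 (SE). Spleen OX40plus samples were lower, at 29.4, 30.4 and 25.3 CPM (mean 28.4 ± 2.71, SD, n = 3), and tumor OX40plus samples were the lowest, at 2.25, 6.16, 5.34 and 8.82 CPM (mean 5.64 ± 2.71, SD, n = 4). No tumor OX40plus sample reached the lowest spleen OX40plus sample.

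Between the gates, Prg4 was lower in OX40plus cells by a ratio of 14.3 in tumor (-3.98 ± 0.29, SE) and 2.72 in spleen (-1.43 ± 0.33, SE). Both differences passed the threshold, and the spleen call was lost without spleen OX40minus mouse 2 (-1.33). The interaction was -2.55 ± 0.44 (SE) and passed. Among the 5 genes, Prg4 alone was called lower in tumor than in spleen within OX40plus cells, at -2.48 ± 0.31 (SE), a ratio of 5.03 in favour of spleen.

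Igfbp3 (ENSMUSG00000020427, chromosome 11, 7206086 to 7213923, minus strand) encodes a binding protein that carries insulin-like growth factors (IGFs) in blood and tissue fluid. It was at 1.81, 1.87, 45.7 and 13.7 CPM in tumor OX40minus samples (mean 15.8 ± 20.7, SD, n = 4), so mice 3 and 4 made up nearly all of the group's 1747 estimated counts. Tumor OX40plus samples were at 0, 0.887, 0.475 and 0.113 CPM, with 38 estimated counts in all. Spleen samples were at 0.309, 0.494 and 0.329 CPM in the OX40minus group and at 0.119, 0.0842 and 0.236 CPM in the OX40plus group. The spleen and tumor OX40plus ranges overlapped along the order of levels, and tumor OX40minus stood above all other samples.

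The log2 difference of Igfbp3 between the tumor gates was -5.11 ± 1.06 (SE) and passed, with an SE several times that of Areg, Mmp9 or Prg4. The ratio of means in favour of OX40minus was 42.8, but it was 15.8 without tumor OX40minus mouse 3 and 80.6 without tumor OX40plus mouse 2. On the log2 scale the values left after dropping 1 sample ranged from -5.82 to -4.19, and the call was kept each time. In OX40minus cells Igfbp3 was higher in tumor than in spleen by 4.15 ± 1.14 (SE), a ratio of 41.8 that was 15.4 without tumor OX40minus mouse 3. This call was lost with limma-voom (4.12). Neither the spleen difference between gates (-1.38 ± 1.22, SE), nor tumor against spleen in OX40plus cells (0.42 ± 1.14, SE), nor the interaction (-3.73 ± 1.61, SE) passed the threshold.

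Counted together in tumor, 4 of the 5 genes were called lower in OX40plus cells and none higher, where 20% of all tested genes were called lower and 18.6% higher. All 5 were lower in every OX40plus sample than in every OX40minus sample, as were 16.2% of all genes, against 16.7% higher. Called in either direction were 38.5% of all tested genes. In spleen, where 7.99% of all genes were called, 2 were called lower (3.6% of all genes) and 1 higher (4.39%), with 3 lower without overlap (14.4%) and 1 higher without overlap (17.4%). Tumor against spleen in OX40plus cells, with 64.5% of all genes called, gave 3 higher (30.3% of all genes) and 1 lower (34.2%), and the same counts without overlap (29.7% and 33.5%). In OX40minus cells, with 59.1% of all genes called, it gave 4 higher (29.7%) and none lower (29.3%), with 4 higher (31.4%) and none lower (32.1%) without overlap. The interaction, called for 10.9% of all genes, was called lower for 3 (6.38%) and higher for none (4.53%). The genes were chosen with these contrasts known, so nothing is read from the counts. The comparisons also share groups, since each group of samples enters 2 of the 4 pairwise contrasts.

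**Figure D2:**
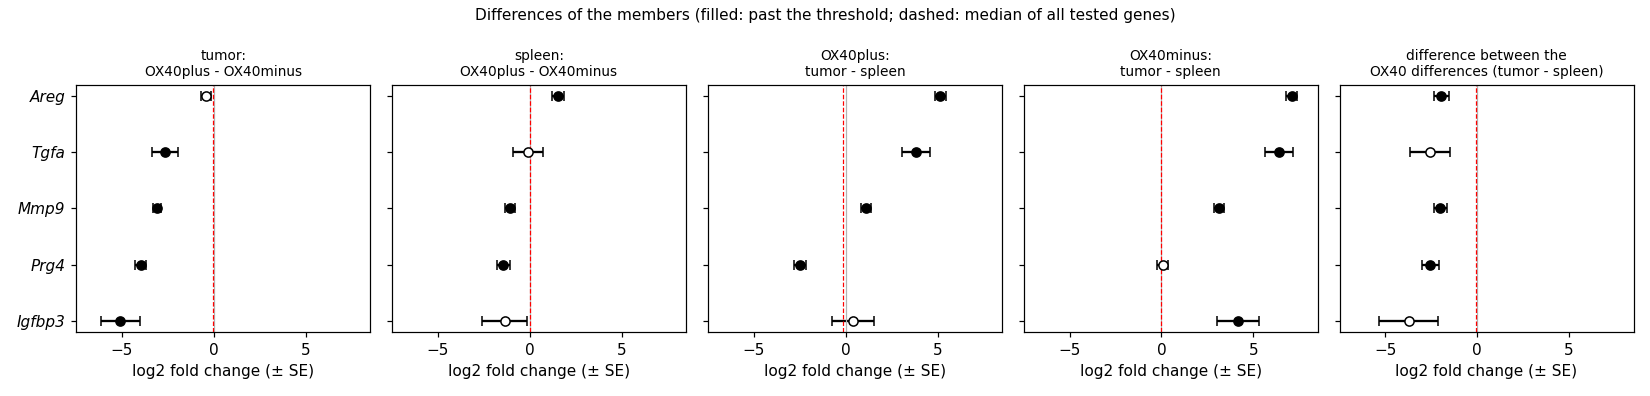
Log2 fold change ± SE of the 5 genes in the 4 pairwise comparisons and in the interaction (x axis, log2 scale); filled points passed the threshold, and the dashed line is the median of all tested genes. In tumor all 5 values are below 0, from -0.42 for Areg to -5.11 for Igfbp3, while in spleen Areg is at 1.52 and the other 4 are below 0.

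Markers of other cells moved with several of these differences. The sum of 11 macrophage and monocyte markers was 239 to 350.3 CPM in tumor OX40minus samples and 58.7 to 69.0 CPM in tumor OX40plus samples, and 9 of the 11 markers were called lower in OX40plus cells. In spleen the same sum was 771 to 983 CPM in OX40minus and 84.2 to 200.4 CPM in OX40plus samples, with 10 of the 11 lower. Mmp9 and Prg4 were lower in the same gate in both tissues. Across tissues the values ran differently: the macrophage sum was higher in spleen than in tumor OX40minus samples, while Mmp9 was 8.79 times higher in tumor and Prg4 was at nearly the same level. Areg in spleen was higher in the gate with the lower macrophage sum. None of the 11 markers was at 0 in a whole group, but Mertk was under the 3-count limit in tumor OX40plus samples. Between tissues, the sum of 7 melanoma markers moved with Areg, Tgfa and Mmp9. It was 72.3 to 192 CPM in tumor and 12.7 to 22.4 CPM in spleen samples. In each gate 6 of the 7 markers were called higher in tumor, and in OX40minus cells 1 was called lower. The sum of 6 B cell markers ran the other way, 389 to 577 CPM in spleen and 0.357 to 4.30 CPM in tumor samples. The part of any of these cells in the Mmp9, Prg4, Tgfa and Areg values was not tested.

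Igfbp3 moved in part with markers of fibroblasts and of endothelial cells. The sum of 10 fibroblast markers, collagen genes among them, was 73.2, 67.9, 149.9 and 138 CPM in tumor OX40minus mice 1 to 4, so the mice with the most Igfbp3, 3 and 4, also had the highest sums. In tumor OX40plus mice 1 to 4 the sum was 36.6, 93.3, 20.2 and 19.8 CPM, and mouse 2 was highest in both this sum and Igfbp3. Other samples did not follow this order. Tumor OX40plus mouse 1 had the next highest sum of its group but Igfbp3 at 0. Tumor OX40plus mouse 2 had a higher sum than tumor OX40minus mice 1 and 2, but less Igfbp3 (0.887 CPM against 1.81 and 1.87). Spleen samples had sums of 8.66 to 16.8 CPM. In tumor, 3 of the 9 tested fibroblast markers were called lower in OX40plus cells. No fibroblast marker was at 0 in a whole group, but Lum was under the 3-count limit in both spleen groups. The sum of 7 endothelial markers was 125, 136.5, 171 and 184 CPM in tumor OX40minus mice 1 to 4 and 67.7, 99.5, 77.6 and 79.5 CPM in tumor OX40plus mice 1 to 4, again highest in mice 3 and 4 and in mouse 2. Of its 6 tested markers, 1 was called lower and 1 higher in tumor OX40plus cells. In spleen, where Igfbp3 was low, the endothelial sum was 137 to 222 CPM. The part of either cell type in the Igfbp3 values was not tested. The sums of 8 dendritic cell markers (143 to 209.5 CPM in tumor OX40minus, 46.1 to 82.2 in OX40plus) and of 8 NK cell markers (38.3 to 61.5 and 11.2 to 22.8 CPM) were also lower in tumor OX40plus samples, with 5 of 8 and 7 of 8 markers called lower. Neutrophils are known for stored gelatinase B, the product of Mmp9, and of their 7 tested markers 2 were called lower and 1 higher in tumor OX40plus cells (median -0.52). The lower ones, S100a8 and S100a9, went from 0.603 and 0.435 CPM in tumor OX40minus to 0.0368 and 0.0278 CPM in tumor OX40plus samples, and the higher one, Ltf, from 8.37 to 22.4 CPM; these 3 are named after their values were seen. The sum of 9 neutrophil markers, 12.03 to 20.1 CPM in tumor OX40minus and 23.7 to 32.2 CPM in tumor OX40plus samples, is mostly Ltf in the latter, where Elane and Ngp were at 0. The part of neutrophils in the Mmp9 values was not tested. The sum of 5 mast cell and basophil markers was 5.89 to 14.2 CPM in tumor OX40minus and 0.0376 to 8.11 CPM in tumor OX40plus samples, and Cma1 was at 0 in both.

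**Figure D3:**
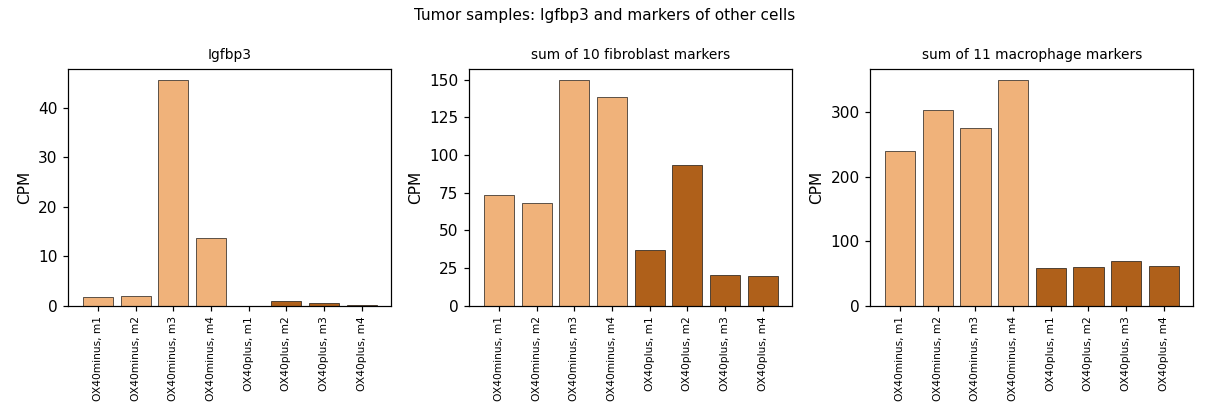
Igfbp3, the sum of 10 fibroblast markers and the sum of 11 macrophage markers in CPM (y axes from 0) in each of the 8 tumor samples; 1 bar is 1 mouse and gate, the mean of 2 libraries. Igfbp3 is highest in OX40minus mouse 3 (45.7 CPM) and mouse 4 (13.7 CPM), where the fibroblast sum is also highest (149.9 and 138 CPM), while the macrophage sum is low in all OX40plus samples.

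The genes around amphiregulin and Tgfa in the EGF pathway were read from lists. These lists and those below were chosen with earlier results of these data known, so nothing is read from their counts. Of 4 tested further EGF family ligands, none was called between the gates of either tissue. Nrg4, a neuregulin that signals through ERBB4, was lower in tumor than in spleen OX40plus cells (-1.45 ± 0.45, SE, adjusted p = 0.00988). Of 7 receptors and feedback genes, 5 were lower and none higher in tumor OX40plus cells (median -0.77, against -0.07 over all tested genes), and none was called in spleen (median -0.16, against 0.01). Among the 5, Erbb3 (-0.44 ± 0.16, SE, adjusted p = 0.0428) had tumor groups that overlapped. Its call was lost under several alternatives, among them the tumor groups fitted alone (adjusted p = 0.0872) and the first library alone (adjusted p = 0.0586). Egfr, the receptor of amphiregulin, was at 0.754 ± 0.649 CPM (SD, n = 4) in tumor OX40minus and 0.438 ± 0.338 CPM in tumor OX40plus samples, and no contrast of it passed. Errfi1, an inhibitor of EGF receptor kinase activity, fell from 62.7 ± 9.42 to 35.5 ± 5.42 CPM (-0.82 ± 0.14, SE, adjusted p = 0.000282). Like Areg it was higher in tumor than in spleen of both gates, by 2.01 ± 0.15 and 2.66 ± 0.15 (adjusted p = 1.06e-08 and 5.88e-10). Lrig1, which promotes breakdown of EGF receptors, fell from 44.96 ± 7.58 to 9.45 ± 3.90 CPM between the tumor gates (-2.36 ± 0.25, SE, adjusted p = 3.95e-06). It was lower in tumor than in spleen, where it was at 181 and 176 CPM.

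Of 11 sheddases and cofactors that release EGF ligands, 4 were lower and none higher in tumor OX40plus cells (median -0.20), and none was called in spleen (median -0.12). Adam17, the main sheddase of amphiregulin and Tgfa, was not called between the gates of either tissue, with 0.07 ± 0.10 (SE, adjusted p = 0.636) in tumor. It was higher in tumor than in spleen in OX40plus cells (0.88 ± 0.11, SE, adjusted p = 3.99e-06) and in OX40minus cells (0.67 ± 0.11, SE, adjusted p = 8.67e-05). Adam8, a sheddase of leukocytes, rose in tumor OX40minus cells over spleen (3.17 ± 0.12, SE, adjusted p = 4.21e-12) and fell between the tumor gates from 290.5 ± 23.8 to 172 ± 25.3 CPM (-0.76 ± 0.11, SE, adjusted p = 5.18e-05). In spleen it was at 32.4 CPM in OX40minus and 29.7 CPM in OX40plus samples, a difference that did not pass (-0.12, adjusted p = 0.808).

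Beside Mmp9, 12 metalloproteinases and inhibitors were tested, of which 5 were lower and none higher in tumor OX40plus cells (median -1.14), and none was called in spleen (median -0.74). Timp1, an inhibitor of Mmp9, had a log2 difference of -1.22 ± 0.46 (SE, adjusted p = 0.0478) between the tumor gates. That call was lost under several alternatives, among them each of 6 left-out samples and the mouse number as a block (adjusted p = 0.0644). Timp3, an inhibitor bound to matrix, was at 10.9 ± 11.96 CPM (SD, n = 4) in tumor OX40minus and 0.372 ± 0.310 CPM in tumor OX40plus samples (-3.59 ± 0.97, SE, adjusted p = 0.00803). With limma-voom its adjusted p was 0.0974. The Timp3 groups overlapped, with the lowest tumor OX40minus sample at 0.542 CPM and the highest tumor OX40plus sample at 0.831 CPM. Timp2, which has a role in activating another gelatinase, did not pass between the gates of either tissue.

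Beside Igfbp3, 12 genes of the IGF axis were tested. In tumor OX40plus cells 5 were lower and none higher (median -1.01), and in spleen 1 was lower (median -0.24). Igf1r, the IGF receptor, fell between the tumor gates from 14.2 ± 2.36 to 5.61 ± 1.11 CPM (-1.35 ± 0.17, SE, adjusted p = 1.78e-05). Unlike Igfbp3 in OX40minus cells, Igf1r was lower in tumor than in spleen, by -2.84 ± 0.18 (SE, adjusted p = 2.35e-09). Igfbp4, a related binding protein, was lower in OX40plus cells of both tissues, at -2.01 ± 0.39 in tumor and -2.41 ± 0.45 in spleen (adjusted p = 0.000712 and 0.00247).

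Of 17 receptors and transcription factors linked to Tregs that make amphiregulin, 11 were higher and none lower in spleen OX40plus cells (median 0.57, against 0.01 over all genes). Of all tested genes, 4.39% were called higher and 3.6% lower there. In tumor OX40plus cells 3 were higher and 9 lower (median -0.34), against 18.6% and 20% of all genes. The interaction was lower for 12 and higher for 1 (median -0.91, against -0.06), where 6.38% and 4.53% of all genes were called. The median had the same sign as the interaction of Areg. This list too was chosen with earlier results of these data known, so nothing is read from the counts. Il1rl1, the receptor for interleukin-33, an alarm signal that raises amphiregulin in tissue Tregs, was at 78.0 ± 17.6 CPM (SD, n = 4) in tumor OX40minus and 31.5 ± 7.80 CPM in tumor OX40plus samples (-1.32 ± 0.21, SE, adjusted p = 0.000118). In spleen it was at 35.1 and 30.5 CPM, and the difference did not pass. Gata3, a transcription factor of tissue Tregs, had the same signs as Areg between the gates, though the tumor difference of Areg did not pass. Gata3 was higher in OX40plus cells of spleen (0.39 ± 0.10, SE, adjusted p = 0.0242) and lower in those of tumor (-0.51 ± 0.09, SE, adjusted p = 0.000275). Its spleen call was lost without spleen OX40minus mouse 2, OX40minus mouse 3 or OX40plus mouse 1 (adjusted p = 0.123, 0.103 and 0.145). In OX40plus cells, unlike Areg, neither Gata3 (0.06, adjusted p = 0.624) nor Il1rl1 (0.02, adjusted p = 0.93) was called between tumor and spleen. In OX40minus cells both were higher in tumor (0.95 and 1.14, adjusted p = 3.27e-07 and 0.000356).

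Crem encodes a factor that binds the cyclic AMP response element, whose letters are in the Areg window printed above. Its level was 17.2 ± 3.10 CPM in spleen OX40minus, 33.3 ± 4.09 in spleen OX40plus, 397 ± 37.7 in tumor OX40minus and 384 ± 59.3 in tumor OX40plus samples. As with Areg, the spleen difference passed (0.96 ± 0.15, SE, adjusted p = 0.000699), the tumor difference did not (-0.06), and tumor exceeded spleen in OX40plus cells (3.52 ± 0.14, SE, adjusted p = 7.57e-12) and in OX40minus cells (4.53 ± 0.14, SE, adjusted p = 6.07e-13). No relation between the factor and Areg was tested. Pparg, a nuclear receptor of adipose tissue Tregs, was 1 of the 3 among these 17 genes called higher in tumor OX40plus cells. It was at 17.3 ± 2.23 CPM in tumor OX40minus and 55.8 ± 4.38 CPM in tumor OX40plus samples (1.69 ± 0.18, SE, adjusted p = 3.85e-06).

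**Figure D4:**
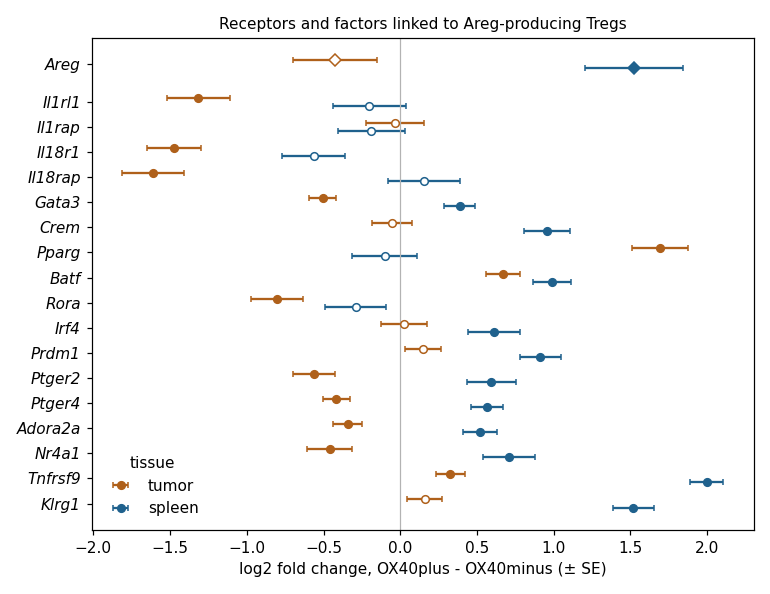
Log2 fold change ± SE of OX40plus over OX40minus cells (x axis) for Areg and for 17 receptors and factors linked to Tregs that make it, in tumor (brown) and spleen (blue); filled points passed the threshold. Areg is at -0.42 in tumor and 1.52 in spleen, and 11 of the 17 factors passed on the higher side in spleen, against 3 in tumor, where 9 passed on the lower side.

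Tumors and spleens were digested into single cells before sorting, and genes of fast responses can be induced by such handling. Of 15 tested genes of dissociation stress and immediate early responses, 10 were higher and 4 lower in tumor than in spleen OX40plus cells (median 0.54, against -0.13 over all genes), and 10 were higher and 3 lower in OX40minus cells (median 1.44, against -0.03). Between the tumor gates, 1 was higher and 9 were lower in OX40plus cells (median -0.75). Between the spleen gates, 3 were higher and 4 lower in OX40plus cells (median 0.09). Fos, an AP-1 subunit, was at 169 ± 12.5 CPM in spleen OX40minus and 1274 ± 127 CPM in tumor OX40minus samples (2.91 ± 0.12, SE, adjusted p = 9.36e-12), and at 438 ± 40.5 CPM in tumor OX40plus samples. Dusp1, a phosphatase induced by stress, had the same signs as Areg between the gates, though the tumor difference of Areg did not pass. Dusp1 was higher in spleen OX40plus cells (0.74 ± 0.14, SE, adjusted p = 0.00254) and lower in tumor OX40plus cells (-0.75 ± 0.12, SE, adjusted p = 0.000144). Atf3, another stress gene, was lower in OX40plus cells of both tissues (-1.83 and -1.92, adjusted p = 0.000235 and 0.00251), the latter not with limma-voom (adjusted p = 0.234). The part of handling in the Areg values was not tested.

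The genes with the pattern most like each of the 5 were ranked by Pearson's r of log2 CPM over the 14 samples, among 10641 genes with a mean of at least 1 CPM. The samples share groups and scaling, so r largely follows the group means, and it is given as a description. For Areg the nearest genes were Fam110a (r = 0.990), Hif1a (0.988) and Dusp5 (0.988). For Tgfa they were Rnase4 (0.960), Gbe1 (0.959) and Tex2 (0.955). For Mmp9 they were Rnf145 (0.988), Cdc42se2 (0.977) and 4930523C07Rik (0.972). For Prg4 they were Rflnb (0.978), Rnf166 (0.972) and Cd86 (0.967), and for Igfbp3, whose r values were lower, Pros1 (0.908), Lgals8 (0.907) and Tppp3 (0.902). No gene was among the 3 nearest of more than 1 of the 5.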

How the data were processed

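RNA was sequenced from 28 libraries of sorted Tregs, and the genes and lists described here were chosen with earlier results of these data known. The deposited table holds log2 CPM in the form of limma's voom, with 0.5 added to each count, read from the values: 451 to 1322 genes per library share its lowest value. Per the submitters' processing notes, the tools were bcl2fastq 2.19, kallisto and limma, with build mm10. Whether counting used strand is not given in the sources used here, so near-identical or overlapping genes are uncertain. Inverting the formula gave estimated counts, of which 43.2% to 49.0% per library were whole within 0.01, against 0.926% to 1.34% with the library size raised by 10%.

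The libraries of 1 mouse and gate had a median chi-square per gene of 0.495 to 0.578 over 14 pairs (sampling alone gives 0.455), against 1.43 to 12.8 between mice of a group, and were averaged to 14 samples. All entered limma's linear model (limma 3.58.1, R 4.3.3; Python 3.11.15 for the rest), with 1 term per group, no block, empirical Bayes moderation with a trend and Benjamini-Hochberg adjustment over 12509 genes, those with at least 0.382 CPM in 3 samples and 15 estimated counts. A gene was called at an adjusted p under 0.05. The fit was tested on simulated data. Mouse numbers in the titles tie the gates and tissues of 1 animal. The correlation of deviations from the group means between samples of 1 mouse was -0.162 to 0.112. Other genes were named by rule: up to 4 of each list and contrast with the smallest adjusted p among those called, plus Egfr, Adam17, Il1rl1, Gata3, Timp1, Timp2 and Igf1r, and the 3 genes of highest r per gene. Of 129 entries in 8 pathway lists, 94 were tested, and of 100 markers in 12 lists, 76. The list of factors linked to Tregs that make amphiregulin and that of immediate early genes share 1 gene, which counts in both. Alternatives were other scalings, filters, pseudocounts, limma-voom, the mouse as a block, single libraries, groups fitted alone and each sample left out. Promoter windows and gene positions are from RefSeq and the annotation of GRCm38, the build named mm10 by the submitters.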

Additional observations from a re-analysis of the deposited data

Results flagged for a closer look

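The interaction of limma's fit passed the threshold for Areg (-1.95), Mmp9 (-2.02) and Prg4 (-2.55), all with a lower OX40 difference in tumor than in spleen. The Areg call was lost with limma-voom. These genes were chosen with such differences known, so their values are a description. Among the named genes of the lists, the interaction was also lower for Lrig1 (-2.32), Il10 (-1.69), Dusp1 (-1.49), Fos (-1.26), Il1rl1 (-1.12), Igf1r (-1.10), Crem (-1.01), Il18r1 (-0.91), Gata3 (-0.89) and Adam8 (-0.65). It was higher for Spp1 (4.67) and Pparg (1.80). The interaction calls of Il1rl1, Il18r1, Igf1r and Adam8 were lost without spleen OX40plus mouse 1, where the adjusted p was 0.102, 0.0983, 0.0509 and 0.0531. For Igf1r this was the only alternative that lost the call. Il1rl1, Il18r1 and Adam8 also lost it without other samples, with an adjusted p of up to 0.0981, 0.113 and 0.0635. Il18r1 further lost it with the mouse number as a block (0.0525), with RLE factors (0.0545) and on the second library alone (0.0652), Il1rl1 on the second library alone (0.0524), and Adam8 with limma-voom (0.0543).

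Single samples lay far from the other 3 of their group for Egfr in tumor OX40minus (1.72 CPM, group median 0.479), Spp1 in tumor OX40minus (10.7 CPM, median 5.49), Adam8 in tumor OX40plus (135 CPM, median 182) and Tgfb1 in tumor OX40plus (121.6 CPM, median 166). This was 4 of 60 tumor groups tested, where chance flags about 1 in 20. None of Areg, Tgfa, Mmp9, Prg4 and Igfbp3 was among them.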

How the results depend on the processing

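The 5 genes gave 25 differences, of which 18 were called. The alternatives gave 430 values, of which 418 kept their side of the threshold, 9 lost the call and 3 gained it. None reversed a called value. Among the 418 are uncalled differences whose sign changed with the sample left out. These were Tgfa between the spleen gates (-0.97 to 0.66) and Prg4 in OX40minus cells, tumor against spleen (-0.06 to 0.18). Igfbp3 in OX40plus cells, tumor against spleen, was another (-0.29 to 1.26). Each of the 12 lost or gained calls is printed beside its gene above, and the cause was not tested. With the mouse number as a replicate block the counts of called genes were 4765, 984, 7916, 7253 and 1256, against 4819, 999, 8072, 7387 and 1365 without it (tumor gates, spleen gates, tumor against spleen in OX40plus and OX40minus, interaction), and no call of the 5 genes changed. The spleen count was 1850 with the spleen groups fitted alone. Leaving out each sample gave 641 to 846 genes in spleen and 766 to 1628 for the interaction. The low ends came without spleen OX40plus mouse 1 (641 and 766) and spleen OX40minus mouse 2 (649 and 828). For tumor gates the range was 4265 to 4829, and for tumor against spleen 7303 to 8051 in OX40plus and 6455 to 7168 in OX40minus. Depth limits Tgfa in spleen (9 and 11 estimated counts) and Igfbp3 outside tumor OX40minus (at most 38 per group).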

Other observations

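Other secreted growth and repair factors did not share a direction. Of 16 tested, 3 were higher and 2 lower in tumor OX40plus than OX40minus cells (median -0.08, against -0.07 over all genes), and 8 were higher in tumor than in spleen in each gate, with 3 lower in OX40plus and 4 in OX40minus cells. Il10, an anti-inflammatory cytokine, was at 285 ± 32.0 CPM in tumor OX40minus and 471 ± 44.5 CPM in tumor OX40plus samples (SD, n = 4), and rose with OX40 there (0.73 ± 0.13, SE, adjusted p = 0.000508, limma) and in spleen (2.41 ± 0.16, SE, adjusted p = 1.33e-07). Spp1, encoding osteopontin, was at 6.68 ± 2.71 and 28.9 ± 9.66 CPM in the tumor gates and was higher in OX40plus cells (2.11 ± 0.39, SE, adjusted p = 0.000549). In spleen it was lower in OX40plus cells (-2.56 ± 0.45, SE, adjusted p = 0.00184), a call lost with limma-voom (adjusted p = 0.296). Spleen levels of Spp1 were low, at 1.22 ± 0.295 CPM in OX40minus and 0.201 ± 0.141 CPM in OX40plus samples (SD, n = 3). The lowest OX40plus sample, at 0.0789 CPM, lay under the 3-count limit. The interaction of Spp1 rests on these spleen levels too. Tgfb1 was at 156 CPM in both tumor gates, with an SD of 5.11 in OX40minus and 22.8 in OX40plus samples.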
